A study of Mus musculus with 10 samples.

Results

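The genes described are Trp53, which encodes the tumour suppressor p53, and 9 genes that p53 is known to activate: Cdkn1a, Mdm2, Ccng1, Bax, Bbc3, Sesn2, Gdf15, Phlda3 and Eda2r. They were taken by gene symbol from a count table of 24421 mouse genes, and all 10 symbols had a row. Levels were compared between 5 libraries of lung squamous cell carcinoma (SCC) and 5 libraries of normal lung. The SCC came from NIH Swiss mice, an outbred stock, of genotype labelled wt, treated with NTCU, a nitrosourea carcinogen that gives rise to squamous tumours of the lung. Normal lung came from the same stock and genotype with no treatment. Age, sex and the state of Trp53 in the tumours are not in the labels used here. In both groups, regions were cut by laser from fixed and embedded sections, and total RNA libraries were made from very small inputs with a stranded kit. Every SCC library is treated and every normal library untreated, so tumour and carcinogen cannot be told apart. Which animal each library came from is not in the labels. The p-values therefore measure the spread between libraries, which may be technical, and are too small if some captured regions share an animal.

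p53 is a transcription factor that is held at a low level by Mdm2, the ubiquitin ligase that marks it for destruction. After DNA damage or other stress it accumulates, binds response elements near its target genes, and raises genes that stop the cell cycle, trigger apoptosis or limit growth signalling. Mdm2 is itself a target, which closes a feedback loop, and much of the control of p53 takes place on the protein, which RNA counts do not measure.

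The response element consists of a pair of decamers read in tandem. It is shown for the members that carry one close to a start site, since binding to it is what defines a direct target. RefSeq promoter windows (GRCm38.p6) of 250 bases before to 50 after each start were searched for 2 decamers with no spacer, allowing 2 mismatches over the 20 bases but none at the C at the fourth and the G at the seventh base of each decamer. The element reads alike on both strands, so each site was counted once. Such a site lay in 107 of 32851 windows (0.326%) and in the windows of 106 of 27025 genes (0.392%). Of the 10 members, with 14 windows in all, Cdkn1a and Ccng1 had one, each with 1 mismatch. The sites are in capitals below, with 20 bases on each side.
Cdkn1a, chr17:29090908-29090967, plus strand: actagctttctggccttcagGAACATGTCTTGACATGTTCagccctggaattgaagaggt
Ccng1, chr11:40755442-40755501, minus strand: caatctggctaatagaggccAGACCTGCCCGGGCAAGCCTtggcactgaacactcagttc
The Cdkn1a site begins 51 bases before an upstream start of the gene at position 29090979 and ends 2822 bases before the downstream start at 29093769. The Ccng1 site begins 195 bases before its start. A match of letters is a description and shows no binding, and its lack in the other 8 members says only that these letters are not in those windows.

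Several facts of the libraries bear on every value below. Total counts ran from 1004105 to 6817106. The labelled tissues matched their markers: 7 of 7 squamous basal markers were higher in SCC, with a summed level of 797 to 5494 CPM (counts scaled by the library total to a common sum) in SCC and 1.07 to 10.3 CPM in normal lung, where Krt6a, Krt13 and Dsg3 were at 0. The summed alveolar type 2 markers stood at 393 to 714 CPM in SCC and 7121 to 10300.4 CPM in normal lung, with 6 of 6 lower. Alveolar type 1 markers (5 of 5 lower) summed to 222 to 464 CPM in SCC and 1636 to 2426 CPM in normal lung, club and ciliated markers (2 of 5 lower) to 1125 to 4341 CPM in SCC and 8725 to 13613 CPM in normal lung, and fibroblast markers (2 of 5 lower) to 164 to 718 CPM in SCC and 609.7 to 976 CPM in normal lung. Endothelial markers summed to 99.2 to 219 CPM in SCC and 1598 to 2640 CPM in normal lung, with 5 of 5 lower, and leukocyte markers to 156 to 276 CPM in SCC and 262 to 429 CPM in normal lung, with 2 of 5 tested lower. The fall of the club and ciliated sum lay mostly in Scgb1a1 (42.9 to 501 CPM in SCC, 7387 to 11508 CPM in normal lung). Cyp2f2 of that list was above every normal library in SCC 1 and SCC 2 (1889 and 3750 CPM, against at most 1577 CPM) and below them in the other SCC libraries. The make-up of cells thus moved with the groups, and its part in each result was not tested. In such bulk samples fewer cells of a type and less RNA per cell cannot be told apart. Olfactory and vomeronasal receptor genes, which lung is not known to use widely, had 3.25 to 3.51 CPM per kb of coding length in SCC 1, SCC 3 and SCC 4, 0.590 in SCC 2, 0.418 in SCC 5 and at most 0.207 in normal lung. If every gene carried such counts in proportion to its length, they would amount to 25.1%, 4.55%, 25.4%, 27.1% and 3.22% of all counts for SCC 1 to SCC 5, with no normal library above 1.59%. Results are therefore also given for SCC 2 and SCC 5 against normal lung, called the low-receptor pair, and after subtraction of this background.

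Phlda3 and Sesn2 rose in SCC, and the other 7 members that could be tested did not pass the test. Phlda3 restrains the growth kinase Akt, and Sesn2 restrains the growth kinase mTORC1 and is induced by oxidative and nutrient stress. Gdf15 had too few counts to pass the filter of the test, but 49 of its 50 counts lay in SCC. Genes were called at an adjusted p under 0.05 in edgeR's quasi-likelihood test, with Benjamini-Hochberg adjustment over all tested genes. By this rule 2 of 9 tested members were called, both higher in SCC, where 21.1% of all 13203 tested genes were called (12.5% higher and 8.68% lower). The share of members called (22.2%) was near that of all genes. The log2 fold change was positive for 8 of 9, with a median of 0.44, against 0.07 over all tested genes. The share of positive values was not compared with that of all genes. For Trp53 (0.15, SE 0.47), Mdm2 (0.22, SE 0.35) and Bbc3 (0.39, SE 0.63) the value was smaller than its SE. The sign of these and of Ccng1 was not kept in every fit. Before any background subtraction, each SCC library lay above each normal library for 3 members (Phlda3, Sesn2 and Gdf15), 2 of them among the 9 tested. Of all tested genes 8.81% did so. The members with each SCC library below each normal library numbered 0, against 5.77% of tested genes.

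**Figure D1:**
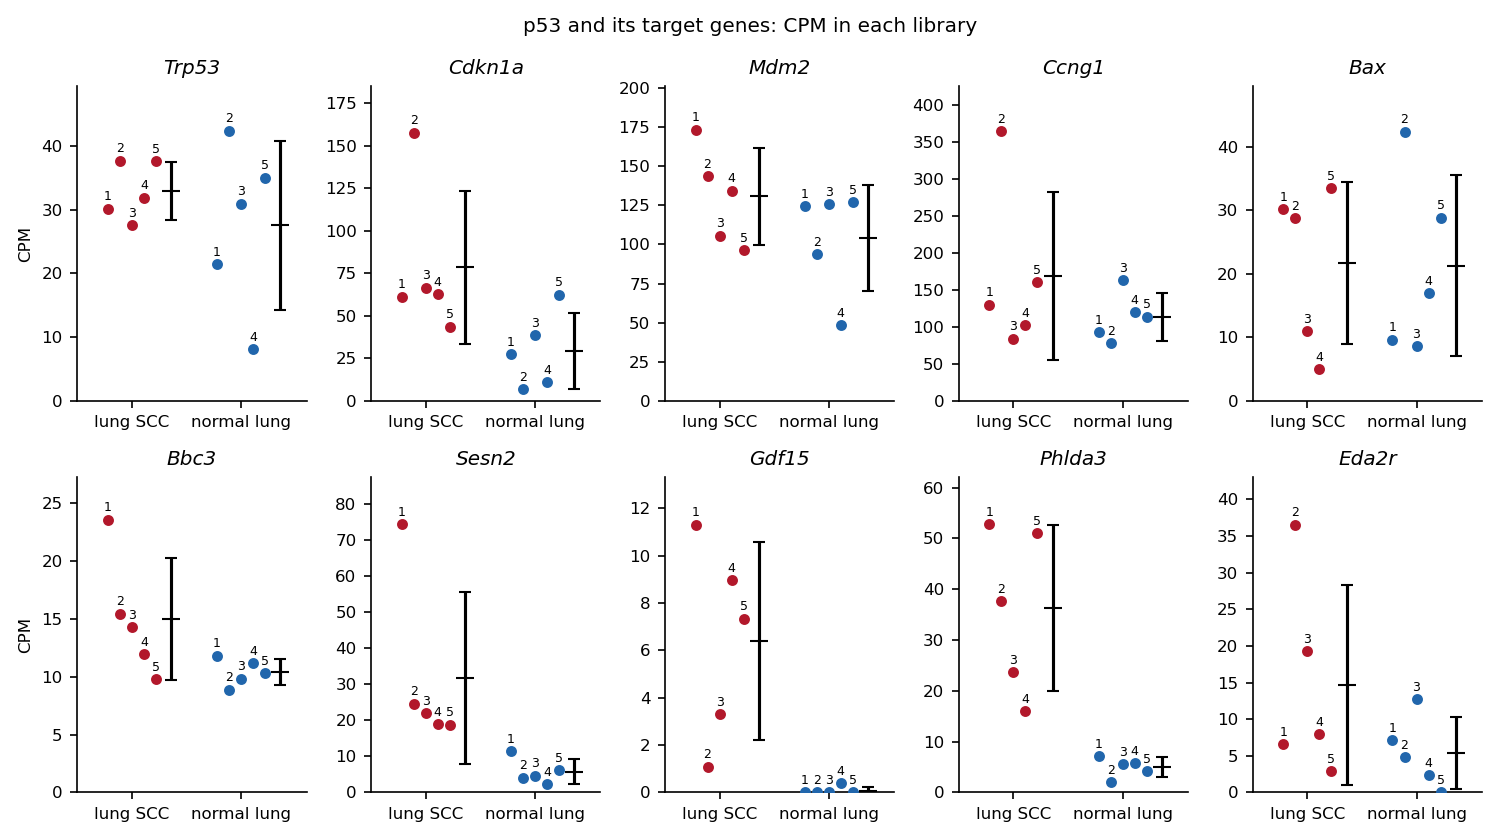
Level of each member in CPM (y axes, linear, each from 0), with SCC libraries in red on the left and normal lung in blue on the right, each digit being the replicate number. Black bars are the mean and SD of 5 libraries, with the lower whisker ending at 0 where it would pass it. Phlda3, Sesn2 and Gdf15 do not overlap between the groups, while those of the other members overlap.

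Trp53 itself did not pass the test. On chromosome 11 (69580359 to 69591873, GRCm38, the assembly of mm10), it had 30.2, 37.7, 27.5, 31.9 and 37.6 CPM in SCC 1 to SCC 5, against 21.5, 42.4, 31.0, 8.10 and 34.99 CPM in normal 1 to normal 5. The SCC libraries lay inside the range of normal lung, and normal 4 was the lowest of all. The mean was 33.0 ± 4.52 CPM in SCC and 27.6 ± 13.2 CPM in normal lung (SD, n = 5 each), with a log2 fold change of 0.15 (SE 0.47, edgeR quasi-likelihood adjusted p = 0.861). The coefficient of variation was 13.7% in SCC and 48.0% in normal lung, a difference that was not tested.

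Mdm2, the ubiquitin ligase and feedback target (chromosome 10, 117688875 to 117710758), had 173, 144, 106, 134 and 96.4 CPM in SCC 1 to SCC 5, against 125, 93.6, 126, 48.6 and 127 CPM in normal 1 to normal 5. SCC 1, SCC 2 and SCC 4 were above all normal libraries, SCC 3 and SCC 5 among them, and normal 4 again the lowest. The log2 fold change was 0.22 (SE 0.35, edgeR quasi-likelihood adjusted p = 0.723). The ratio of Mdm2 to Trp53 counts within a library does not depend on library scaling. On the log2 scale it averaged 1.96 ± 0.41 in SCC and 2.02 ± 0.58 in normal lung (SD, n = 5 each), a difference of -0.06 (exact two-sided permutation p = 0.897, the same after adjustment over 3 ratios). The smallest p that the 252 relabelings allow is 0.00794.

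Cdkn1a, which encodes p21, the inhibitor of cyclin-dependent kinases that carries out the arrest of the cycle by p53, stood near the threshold. The gene (chromosome 17, 29090976 to 29100727) had 61.3, 158, 66.6, 62.7 and 43.7 CPM in SCC 1 to SCC 5, against 27.6, 6.84, 38.4, 11.2 and 62.4 CPM in normal 1 to normal 5. SCC 2 was far above the rest, SCC 1 lay just under normal 5, and SCC 5 lay inside the normal range. The mean was 78.4 ± 45.2 CPM in SCC and 29.3 ± 22.5 CPM in normal lung (SD, n = 5 each), with a log2 fold change of 1.3 (SE 0.49). This did not pass (edgeR's quasi-likelihood test, Benjamini-Hochberg adjusted p = 0.0623).

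The call on Cdkn1a depended on the method and on single libraries. It passed with DESeq2 size factors (1.37, adjusted p = 0.0486), in the DESeq2 Wald test (1.37, adjusted p = 0.0370) and in limma-voom (1.39, adjusted p = 0.00505). Of the 13203 tested genes these fits called 2787, 3423 and 6023, against 2791 in the main fit. With edgeR Cdkn1a also passed without SCC 5 (1.40, adjusted p = 0.0388) or without normal 5 (1.58, adjusted p = 0.0288), and leaving out any single library gave 0.88 to 1.58. In the low-receptor pair it was 1.63 (edgeR adjusted p = 0.111), and after background subtraction 1.62 (edgeR adjusted p = 0.0555). In the annotation 273 exonic bases of Cdkn1a overlap AC167363.2 on the opposite strand, and how strand was handled in counting is not stated. The log2 ratio of Cdkn1a to Trp53 was 1.01, 2.06, 1.27, 0.97 and 0.22 in SCC 1 to SCC 5, against 0.36, -2.57, 0.31, 0.46 and 0.83 in normal 1 to normal 5. SCC 1 to SCC 4 had more Cdkn1a counts per Trp53 count than any normal library, and SCC 5 less than all but normal 2. The difference of 1.23 did not pass (exact two-sided permutation p = 0.0635, adjusted p = 0.190 over 3 ratios), though it did without SCC 5 (1.45, exact permutation, adjusted p = 0.0476).

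Ccng1, cyclin G1, is a p53 target that feeds back on p53 through Mdm2 (chromosome 11, 40748552 to 40755311). It had 130.1, 365, 84.2, 103 and 161 CPM in SCC 1 to SCC 5, against 92.7, 77.9, 163, 120.0 and 114 CPM in normal 1 to normal 5. SCC 2 was more than double any other library, and the other SCC libraries lay within the normal range. The log2 fold change was 0.44 (SE 0.39, edgeR quasi-likelihood adjusted p = 0.474), and without SCC 2 it was -0.04. In the low-receptor pair it was 1.05 (edgeR adjusted p = 0.0736). Both members with a response element in the searched windows, Cdkn1a and Ccng1, thus had their highest level in SCC 2. Among the SCC libraries Trp53 and Eda2r, which had no such site, were also highest in SCC 2. A link between the site and the level was not tested.

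**Figure D2:**
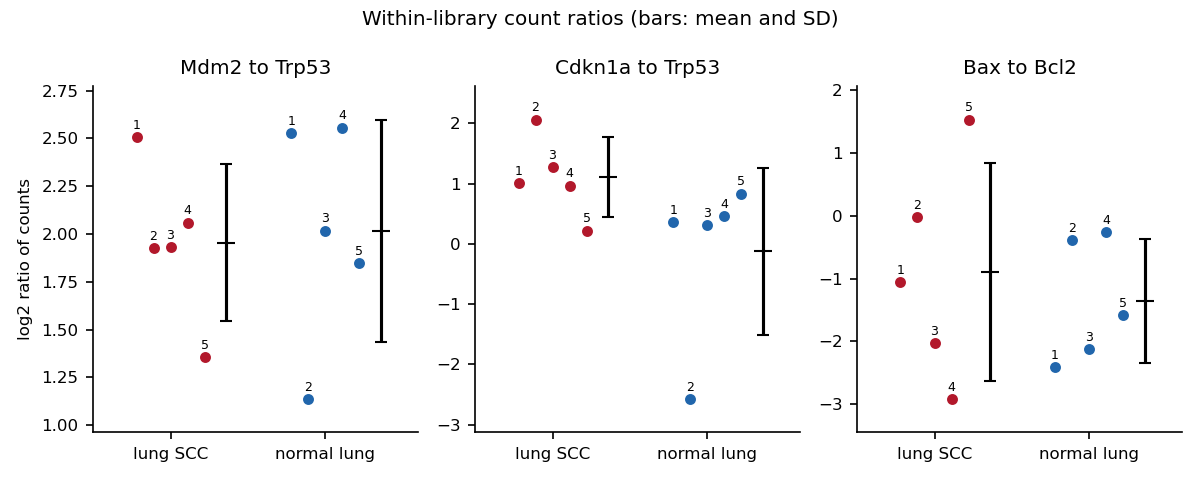
Log2 ratio of counts within each library (y axes) for Mdm2 to Trp53, Cdkn1a to Trp53 and Bax to Bcl2, with SCC in red on the left, normal lung in blue on the right, digits for replicates and black bars at mean ± SD (n = 5). The groups overlap in each panel, and the lowest Cdkn1a to Trp53 value is normal 2 at -2.57.

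Of the apoptosis genes, neither member passed. Bax, which opens the outer mitochondrial membrane (chromosome 7, 45461697 to 45466898), had 30.2, 28.7, 11, 4.98 and 33.5 CPM in SCC 1 to SCC 5, against 9.66, 42.4, 8.65, 17.0 and 28.8 CPM in normal 1 to normal 5. The groups overlapped, with SCC 4 the lowest of all libraries and normal 2 the highest, and the log2 fold change was -0.08 (SE 0.61, edgeR quasi-likelihood adjusted p = 0.943). Its sign was positive in the low-receptor pair (0.43) and once background was subtracted (0.08). In the annotation 192 exonic bases of Bax are shared with Gm45808 on the same strand. Bbc3, which encodes Puma, a BH3-only protein that sets Bax free to act (chromosome 7, 16308393 to 16318205), had 23.6, 15.4, 14.3, 12 and 9.80 CPM in SCC 1 to SCC 5, against 11.8, 8.89, 9.83, 11.2 and 10.3 CPM in normal 1 to normal 5. Normal libraries lay close together and 4 SCC libraries lay above them all, but background came to an estimated 20.4% of the SCC counts and the log2 fold change was 0.39 (SE 0.63, edgeR quasi-likelihood adjusted p = 0.719).

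Phlda3, a small protein with a lipid-binding PH domain that competes with Akt for the membrane (chromosome 1, 135766119 to 135769136), showed the firmest difference among the members. It had 52.8, 37.7, 23.7, 15.9 and 51.0 CPM in SCC 1 to SCC 5, against 7.16, 2.05, 5.57, 5.79 and 4.12 CPM in normal 1 to normal 5. The lowest SCC library was more than double the highest normal library. Phlda3 averaged 36.2 ± 16.3 CPM in SCC and 4.94 ± 1.94 CPM in normal lung (SD, n = 5 each) and rose by 2.74 on the log2 scale (SE 0.59, edgeR quasi-likelihood adjusted p = 0.00142). It was called without any single library (2.38 to 2.84, edgeR adjusted p = 0.00167 to 0.0066). It was also called in the low-receptor pair (3.03, edgeR adjusted p = 0.00875), where 9.3% of 14305 tested genes were called. After background subtraction it was at 3.0 (edgeR adjusted p = 0.00401), where 14.8% of 11517 genes were called, the background being 6.12% of its SCC counts.

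Eda2r, a receptor of the tumour necrosis factor family that binds ectodysplasin A2 (chromosome X, 97333840 to 97377216), had 6.60, 36.6, 19.3, 7.97 and 2.86 CPM in SCC 1 to SCC 5, against 7.16, 4.78, 12.8, 2.31 and 0 CPM in normal 1 to normal 5. SCC 2 and SCC 3 were above all normal libraries, and SCC 5 was below 3 of the 5. The log2 fold change was 1.29 (SE 0.86, edgeR quasi-likelihood adjusted p = 0.320). The gene has a long exon length, and the estimated background of 15.6 CPM in SCC 1 and 16.8 CPM in SCC 4 exceeded what was measured there. In SCC 3 the background came to 15.8 of 19.3 CPM, and less this SCC 3 would lie inside the normal range. Subtraction left too few counts for a test.

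Sesn2, Sestrin 2 (chromosome 4, 132492032 to 132510501), had 74.5, 24.6, 22, 18.9 and 18.8 CPM in SCC 1 to SCC 5, against 11.5, 4.10, 4.69, 2.31 and 6.17 CPM in normal 1 to normal 5. SCC 1 stood about 3 times above the other SCC libraries, and these still lay above all normal libraries. Sesn2 averaged 31.8 ± 24.0 CPM in SCC and 5.75 ± 3.48 CPM in normal lung (SD, n = 5 each) and rose by 2.34 on the log2 scale (SE 0.64, edgeR quasi-likelihood adjusted p = 0.00991). The call was lost without SCC 1 (1.74, edgeR adjusted p = 0.0920) and in the low-receptor pair (1.80, edgeR adjusted p = 0.223). It held after background subtraction (2.48, edgeR adjusted p = 0.0439), the background being 20.4% of the SCC counts. By library the estimated background was 11.3, 2.05, 11.4, 12.2 and 1.45 CPM in SCC 1 to SCC 5. Less this background, SCC 3 and SCC 4 would no longer lie above normal 1, so the lack of overlap holds only for the measured levels.

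Gdf15, a secreted stress hormone of the TGF-beta superfamily (chromosome 8, 70629393 to 70632456), had 12, 4, 6, 9 and 18 counts in SCC 1 to SCC 5, against 0, 0, 0, 1 and 0 counts in normal 1 to normal 5. In CPM this was 11.3, 1.08, 3.30, 8.96 and 7.35 in SCC, against a single value above 0 in normal lung, 0.386 in normal 4. Every SCC library was above every normal library, at counts too low for the filter of the test. With no filter on low counts Gdf15 was called as higher in SCC (edgeR adjusted p = 0.00559), where 32.9% of 22919 genes were called, but its fitted fold change then depends on the prior count. The pooled rate was 73.9 times that of normal lung (95% exact counting interval 12.7 to 2979, which covers counting error only), and 61.9 to 108 times when a single SCC library was left out. The rate in normal lung rests on the 1 count in normal 4, and without that library no ratio can be given. The estimated background came to 6.02, 1.09, 6.10, 6.50 and 0.773 CPM in SCC 1 to SCC 5, or 61.1% of the SCC counts. It was at or above the measured level in SCC 2 and SCC 3, and far below it in SCC 5.

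**Figure D3:**
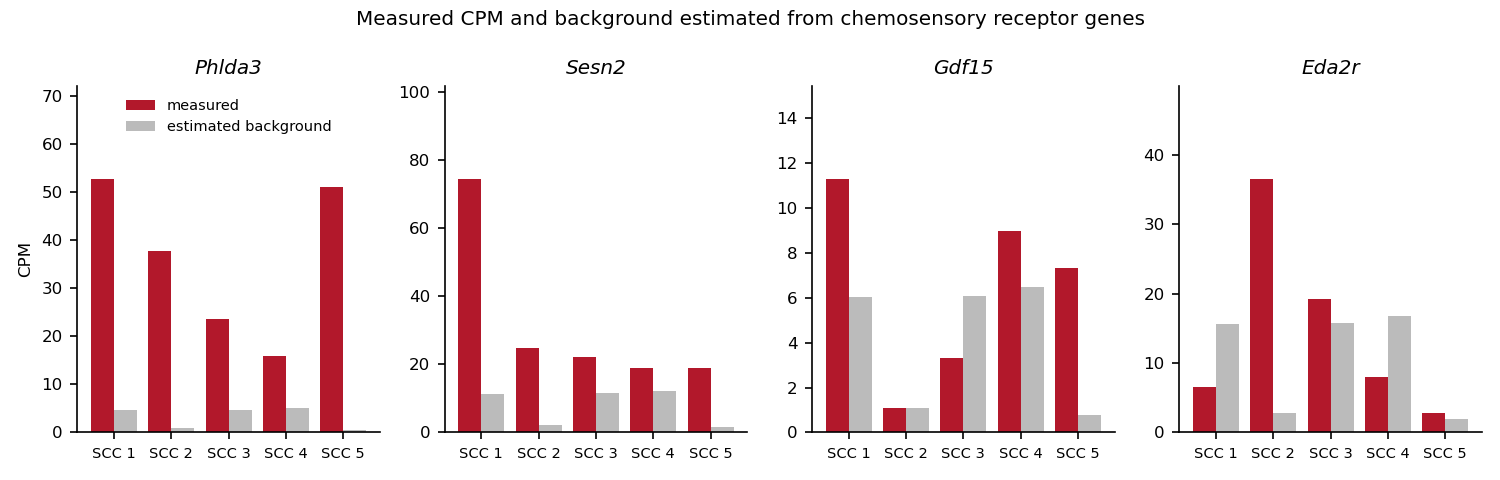
Measured level (red) and estimated length-proportional background (grey) in CPM (y axes) of Phlda3, Sesn2, Gdf15 and Eda2r in SCC 1 to SCC 5. For Phlda3 and Sesn2 the measured level is above the background in each library, for Gdf15 it is 7.35 against 0.773 CPM in SCC 5 but below the background in SCC 3, and for Eda2r it is below the background in SCC 1 and SCC 4.

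The members did not share one order among the SCC libraries. SCC 1 was the highest SCC library for 5 members (Mdm2, Bbc3, Sesn2, Gdf15 and Phlda3), SCC 2 for 4 (Trp53, Cdkn1a, Ccng1 and Eda2r) and SCC 5 for Bax. SCC 5 was the lowest for Cdkn1a, Mdm2, Bbc3, Sesn2 and Eda2r. The coefficient of variation over SCC libraries ran from 13.7% for Trp53 to 93.5% for Eda2r.

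Levels between genes were compared per kb of exon. In SCC the order of mean levels in CPM per kb was Ccng1 at 48.0, Mdm2 at 41.6, Cdkn1a at 28.8, Phlda3 at 25.2, Bax at 25, Trp53 at 17.6, Sesn2 at 9.14, Bbc3 at 8.28, Gdf15 at 3.46 and Eda2r at 3.05. No neighbours in that order were apart by more than their SDs. In normal lung the order was Mdm2 at 33.0, Ccng1 at 32.3, Bax at 24.6, Trp53 at 14.8, Cdkn1a at 10.8, Bbc3 at 5.73, Phlda3 at 3.44, Sesn2 at 1.65, Eda2r at 1.13 and Gdf15 at 0.0417 CPM per kb. There Bbc3 and Phlda3 were the only neighbours whose mean ± SD ranges did not overlap. By mean level Mdm2 and Ccng1 thus led in both groups, and Phlda3 stood above Bax, Trp53 and Bbc3 in SCC but below them in normal lung. In SCC the mean ± SD range of Phlda3 overlapped those of Bax and Trp53, so its place against them there is not firm.

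**Figure D4:**
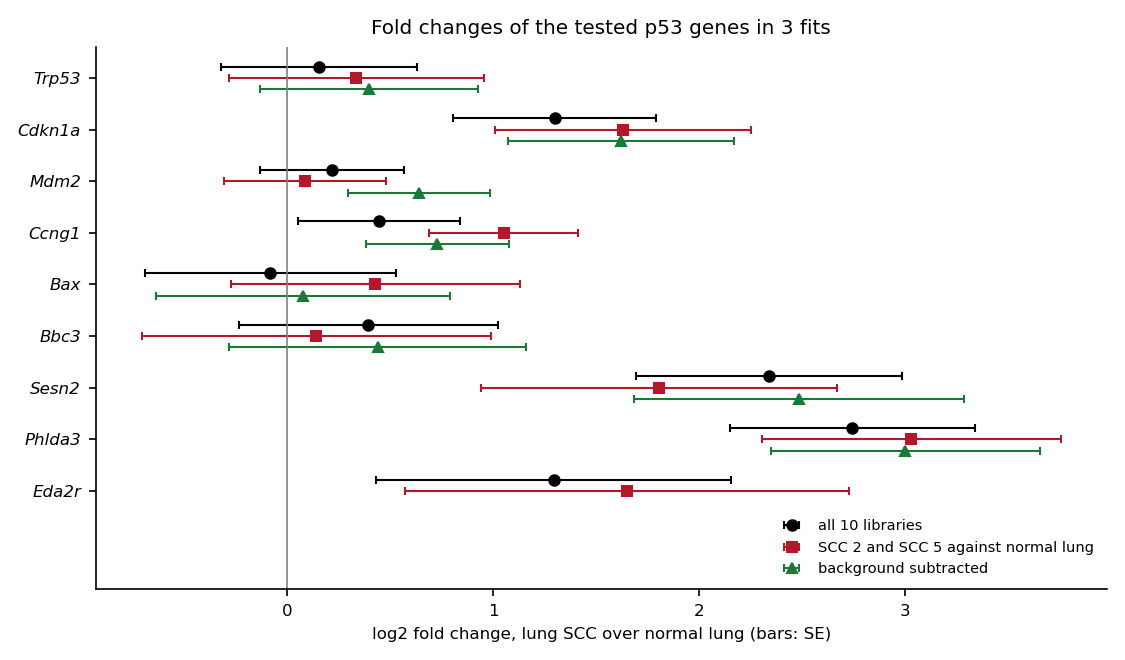
Log2 fold change of SCC over normal lung (x axis) with its SE for the 9 tested members, as black circles with all 10 libraries, red squares for the low-receptor pair (SCC 2 and SCC 5) against normal lung and green triangles after background subtraction. Phlda3 lies at 2.74, 3.03 and 3.0 and Sesn2 at 2.34, 1.80 and 2.48, while Trp53, Mdm2, Bax and Bbc3 stay within 1 of 0. Eda2r has no triangle because it could not be tested after subtraction.

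By likeness of pattern, the root mean square difference of centred log2 CPM over the 10 libraries was computed against 15020 genes averaging 5 CPM or more. Near to Trp53 were Nup160 (0.28) and G3bp1 (0.33), with a median over all genes of 1.21. Nearest to Cdkn1a were Nufip1 (0.44), Uck2 (0.45) and Gcnt1 (0.49), with a median of 1.49. Nearest to Mdm2 were Ubr2 (0.21), Pgm2l1 (0.23) and Usb1 (0.26), with a median of 1.11. Every one of these differences is a description over libraries that share the 2 groups, and no other member was among the named genes.

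The wider set of p53 targets gave no larger share of calls than all genes. Of 30 further targets 29 were tested (Gtse1 was not), with a median log2 fold change of 0.29. Of these 5 were higher and 0 lower, or 17.2% called against 21.1% of all tested genes (12.5% higher and 8.68% lower). Perp, a desmosomal protein of stratified epithelium that p53 and p63 both activate, had 319, 536, 147, 182 and 1258 CPM in SCC 1 to SCC 5, against 21.1, 21.2, 29.9, 14.7 and 39.1 CPM in normal 1 to normal 5. The groups did not overlap, and Perp rose by 4.21 (SE 0.56, edgeR quasi-likelihood adjusted p = 5.94e-06). Tnfrsf10b, the death receptor for TRAIL, had 316, 120.3, 533, 480.0 and 67.0 CPM in SCC 1 to SCC 5, against 34.0, 28.7, 21.6, 27.8 and 76.2 CPM in normal 1 to normal 5. It was highest in the SCC libraries of high receptor signal, and SCC 5 was below normal 5. It rose by 2.88 (SE 0.51, edgeR adjusted p = 0.000187), and in the low-receptor pair it was 1.18 (edgeR adjusted p = 0.157). The estimated background was 2.15% of its SCC counts, and after subtraction Tnfrsf10b was still called (3.55, edgeR adjusted p = 0.000857). Pidd1, a death domain adaptor, was at 2.74 (SE 0.84, edgeR adjusted p = 0.0197), with background at 34.6% of its SCC counts. Ddit4l (2.37, edgeR adjusted p = 0.0472), a relative of the mTORC1 inhibitor Ddit4, and Pmaip1 (1.56, edgeR adjusted p = 0.0445), which encodes the BH3-only protein Noxa, were the other called targets, named after their values were seen.

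The calls on Pidd1, Ddit4l and Pmaip1 were not firm. Each was lost in the low-receptor pair (1.51, 0.63 and 1.49, edgeR adjusted p = 0.517, 0.83 and 0.214). Each was also lost without SCC 1, SCC 3, SCC 4 or normal 2 (edgeR adjusted p up to 0.0965 for Pidd1, 0.231 for Ddit4l and 0.154 for Pmaip1). Ddit4l was further lost without normal 3, normal 4 or normal 5, and Pmaip1 without SCC 2, normal 1, normal 3 or normal 4, while Pidd1 could not be tested without SCC 2. Called targets numbered 1 of 29 in the low-receptor pair, where 9.3% of all genes were called, and 2 of 28 after background subtraction, where 14.8% were.

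**Figure D5:**
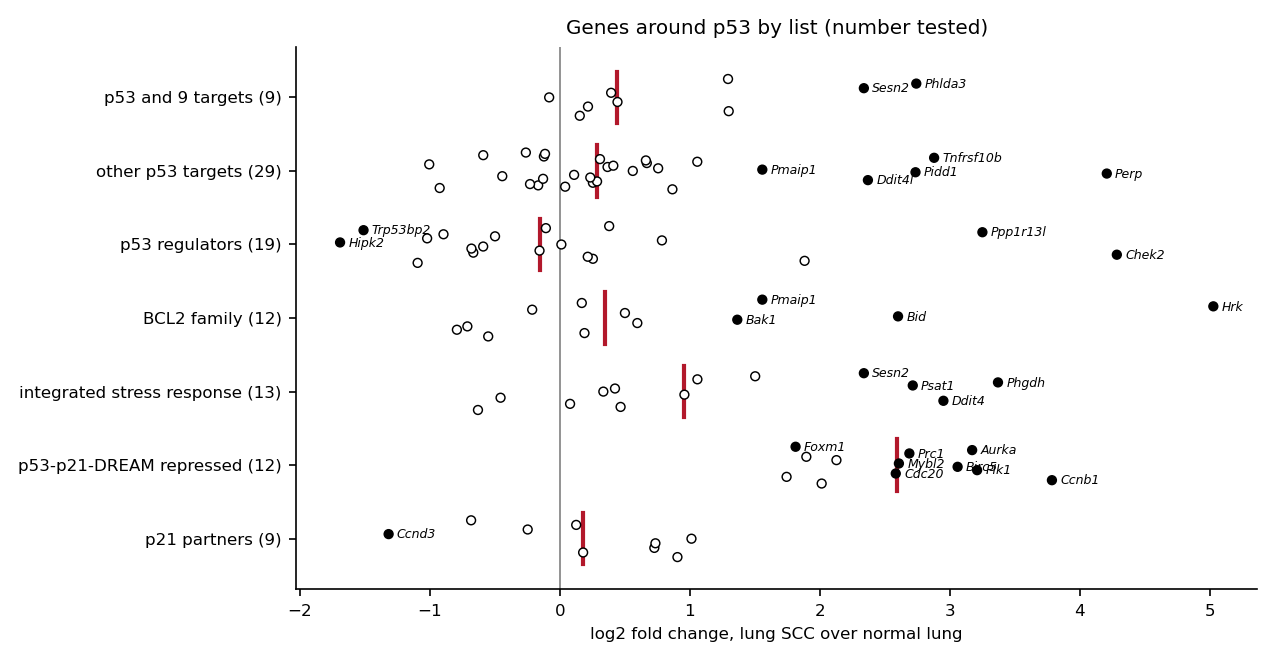
Log2 fold change of SCC over normal lung (x axis) for each tested gene of the members and 6 further lists (rows, number tested in brackets), filled and named where the edgeR quasi-likelihood adjusted p is under 0.05, with a red line at each list's median. The medians are 0.44 for the members, 0.29 for the other targets, 2.60 for the genes repressed through p21 and 0.07 over all tested genes.

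Genes that act on p53 moved both ways, with 2 of 19 tested regulators higher and 2 lower and a median of -0.16 (Chek1 was not tested and Trp53rk not analysed here). The share called (21.1%) was that of all tested genes (21.1%). Ppp1r13l, which encodes iASPP, an inhibitor of p53 that is abundant in stratified epithelium, had 165, 76.7, 55.0, 66.7 and 129 CPM in SCC 1 to SCC 5, against 6.80, 10.9, 5.87, 12.7 and 11.7 CPM in normal 1 to normal 5. It did not overlap between the groups and rose by 3.25 (SE 0.46, edgeR quasi-likelihood adjusted p = 1.36e-05), also in the low-receptor pair (3.32, edgeR adjusted p = 0.000232). Chek2, a checkpoint kinase that phosphorylates p53, had 8.48, 6.77, 21.5, 31.9 and 32.3 CPM in SCC 1 to SCC 5, against 1.43, 0, 1.61, 0 and 1.37 CPM in normal 1 to normal 5, and rose by 4.28 (SE 0.94, edgeR adjusted p = 0.00154).

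The regulators that fell were Hipk2, a kinase that primes p53 for apoptosis, and Trp53bp2, which encodes ASPP2, an activator of p53 and the counterpart of iASPP. Hipk2 fell by 1.69 on the log2 scale (SE 0.38, edgeR quasi-likelihood adjusted p = 0.00196) and Trp53bp2 by 1.51 (SE 0.39, edgeR adjusted p = 0.00592), and in the low-receptor pair Trp53bp2 missed the threshold (-1.54, edgeR adjusted p = 0.0558). Mdm4, the partner of Mdm2, had 64.1, 218, 66.1, 73.7 and 38.8 CPM in SCC 1 to SCC 5, against 224, 116, 182, 176 and 197 CPM in normal 1 to normal 5. All but SCC 2 lay below every normal library. Its log2 fold change of -1.09 (SE 0.40) did not pass (edgeR adjusted p = 0.0548), but it did without SCC 2 (-1.70, edgeR adjusted p = 0.00140) and without normal 2. Cdkn2a, whose products include the Mdm2 inhibitor Arf, had 9.36 to 14.1 CPM in SCC and 0.147 to 11.8 CPM in normal lung, of which normal 1 was the highest and the others at most 1.37 CPM. Its difference of 1.88 (SE 0.93) did not pass (edgeR adjusted p = 0.159), and it did without normal 1 (3.62, edgeR adjusted p = 0.0137). Atm, the kinase that senses DNA breaks, was at 0.25 (SE 0.36, edgeR adjusted p = 0.683).

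Both relatives of p53 were called. Trp63, the transcription factor of basal cells, which binds the same kind of element as p53, had 158, 98.6, 83.7, 84.7 and 281 CPM in SCC 1 to SCC 5, against 1.07, 4.78, 2.35, 0.772 and 1.37 CPM in normal 1 to normal 5. It rose by 6.05 (SE 0.57, edgeR quasi-likelihood adjusted p = 4.55e-08) with no overlap between the groups. Trp73 had 89.6, 8.67, 35.8, 27.9 and 2.86 CPM in SCC 1 to SCC 5, against 4.30, 12.3, 5.13, 6.94 and 5.49 CPM in normal 1 to normal 5. SCC 2 lay inside the normal range and SCC 5 below it. The call on Trp73 (2.11, SE 0.73, edgeR adjusted p = 0.0381) was lost with those libraries alone (-0.40, edgeR adjusted p = 0.883), after background subtraction (2.18, edgeR adjusted p = 0.152) and without any one of SCC 1, SCC 3, SCC 4, normal 1, normal 3, normal 4 or normal 5.

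Among BCL2 family genes, the partners of Bax and Puma, 4 of 12 tested were higher and 0 lower (33.3% called, against 21.1% of all tested genes), with a median of 0.34. The 4 were Bak1, Hrk, Bid and Pmaip1. Pmaip1 was also counted among the other p53 targets above, where its call was not firm. Bak1, which opens the mitochondrial membrane as Bax does, had 49.97, 60.7, 60.0, 55.8 and 119.6 CPM in SCC 1 to SCC 5, against 35.8, 12.3, 31.7, 20.8 and 26.1 CPM in normal 1 to normal 5. The groups did not overlap. Bak1 rose by 1.36 (SE 0.42, edgeR quasi-likelihood adjusted p = 0.0207), in the low-receptor pair too (1.74, edgeR adjusted p = 0.0298), but missed the threshold without SCC 5, normal 2, normal 4 or normal 5 (edgeR adjusted p up to 0.121). Hrk, a BH3-only gene, was at 5.03 (SE 1.02, edgeR adjusted p = 0.00075), with background at 64.0% of its SCC counts. Bid, which links death receptors to mitochondria, was at 2.60 (SE 0.88, edgeR adjusted p = 0.0357) and rested on SCC 1, which had 94.3 CPM where the other SCC libraries had 1.63 to 14.9 CPM and normal lung 0.772 to 7.33 CPM. Without SCC 1 it was at 1.04 (edgeR adjusted p = 0.515), it also missed the threshold without normal 1, normal 2, normal 4 or normal 5, and it could not be tested without normal 3. Of the survival genes, Bcl2 was at -0.55 (SE 0.46, edgeR adjusted p = 0.447) and Bcl2l1, which encodes Bcl-xL, at 0.19 (SE 0.34, edgeR adjusted p = 0.755). The log2 ratio of Bax to Bcl2 averaged -0.90 ± 1.73 in SCC and -1.35 ± 0.99 in normal lung (SD, n = 5 each), a difference of 0.46 (exact two-sided permutation p = 0.643, adjusted p = 0.897 over 3 ratios). In the low-receptor pair 1 of 14 tested genes of the BCL2 family was called, where 9.3% of all genes were, and after background subtraction 1 of 9, where 14.8% were.

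Sesn2 and Gdf15 are also known as targets of the integrated stress response, in which Atf4 raises genes of amino acid supply. The list for that response holds both of these members, of which Gdf15 was not tested. Of its 13 tested genes 4 were higher, Sesn2 among them, and 0 lower (30.8% called, against 21.1% of all tested genes). The share thus counts the call on Sesn2 again and is no separate support for it. The median was 0.96, against 0.07 over all tested genes. Phgdh and Psat1, enzymes of serine synthesis, rose by 3.37 (SE 0.76, edgeR quasi-likelihood adjusted p = 0.00212) and 2.71 (SE 0.74, edgeR adjusted p = 0.00928). Ddit4, a stress-induced inhibitor of mTORC1, rose by 2.95 (SE 0.70, edgeR adjusted p = 0.00312), and Sesn2 was the other called gene. In the low-receptor pair, Ddit4 (3.18, edgeR adjusted p = 0.0211) and Psat1 (3.26, edgeR adjusted p = 0.0271) were called and Phgdh was not (3.07, edgeR adjusted p = 0.0627). The factors themselves did not pass, Atf4 at -0.63 (SE 0.41, edgeR adjusted p = 0.30) and Ddit3, which encodes CHOP, at 0.08 (SE 0.52, edgeR adjusted p = 0.937). These are RNA levels, and the amount or activity of either protein was not measured. Without SCC 5, where Atf4 was highest, Atf4 was lower in SCC (-1.11, edgeR adjusted p = 0.0303).

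Cell cycle genes that p53 lowers through p21 and the DREAM repressor complex were mostly higher in SCC. Of 12 tested 8 were higher and 0 lower (66.7% called, against 21.1% of all tested genes), with a median of 2.60, against 0.07 over all tested genes. Prc1, which bundles microtubules of the spindle midzone, rose by 2.69 (SE 0.50, edgeR quasi-likelihood adjusted p = 0.000327). Plk1, a mitotic kinase, rose by 3.21 (SE 0.77, edgeR adjusted p = 0.00326), and Birc5, survivin, by 3.06 (SE 0.79, edgeR adjusted p = 0.00631). In the low-receptor pair the median was 2.41, but Prc1 was the only gene called (2.62, edgeR adjusted p = 0.0123). After background subtraction 5 of 9 were called, where 14.8% of all genes were, with a median of 2.95. The summed cycling markers Mki67 and Top2a stood at 50.9 to 537 CPM in SCC and 33.5 to 74.2 CPM in normal lung, with SCC 1 the lowest of SCC.

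Of the cyclins and kinases that p21 binds, with its relatives and PCNA, 0 of 9 tested were higher and 1 was lower (11.1% called, against 21.1% of all tested genes), with a median of 0.18. Ccnd3, cyclin D3, had 16, 26, 25.3, 30.9 and 47.4 CPM in SCC 1 to SCC 5, against 90.9, 51.9, 65.4, 66.7 and 67.2 CPM in normal 1 to normal 5, with no overlap. Ccnd3 fell by 1.32 on the log2 scale (SE 0.40, edgeR quasi-likelihood adjusted p = 0.0190) and was not called in the low-receptor pair (-1.0, edgeR adjusted p = 0.22) or after subtraction (-1.20, edgeR adjusted p = 0.0854). In both of those fits Ccnd1 and Ccnd2, cyclins D1 and D2, were called instead, as higher in SCC and named after their values were seen. In the low-receptor pair they were at 1.34 and 1.63 (edgeR adjusted p = 0.00492 and 0.000689). Pcna, the sliding clamp of DNA replication, was at -0.25 (SE 0.62, edgeR adjusted p = 0.827).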

How the data were processed

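The authors deposited raw read counts, whole numbers per gene symbol with no normalization, with 1 column for each of 10 libraries. Per the submitters' processing notes, their work used cutadapt 1.9.1, HTSeq 0.6.1, TopHat2 2.0.1, DESeq2 and build mm10. They do not state the annotation, strand setting or handling of multi-mapping reads, so counts of overlapping genes are uncertain.

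The test was edgeR 4.0.16 under R 4.3.3 (filterByExpr by group, TMM, robust quasi-likelihood test, Benjamini-Hochberg adjustment over 13203 genes, threshold 0.05). The SE is the log2 fold change divided by the square root of F. CPM uses the library total, and log2 CPM in the likeness measure a prior count of 2. Count ratios added 0.5 to each count and were compared by exact permutation. Alternatives used DESeq2 1.42.0 size factors and Wald test, limma 3.58.1 (voom with quality weights), no filter, SCC 2 and SCC 5 alone, background subtraction and leaving out each library. Background was the receptor signal (1456 receptor genes, genes above the 98th percentile set to it) times exon length from GENCODE M21, matched for 24063 genes. Replicate numbers follow the order of the samples.

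The members, the gene lists and the alternatives were chosen with earlier results of these data known, so no count over them is independent support. Named were all members, the 3 higher and 3 lower called genes of smallest p in each list, the 3 genes nearest in pattern to Trp53, Cdkn1a and Mdm2, and Trp63, Trp73, Mdm4, Cdkn2a, Atm, Perp, Bcl2, Bcl2l1, Atf4, Ddit3 and Pcna. 1 gene that this rule names is not reported here.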

Additional observations from a re-analysis of the deposited data

Results flagged for a closer look

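Each of 26 sets of 5 values, those of the 10 members and the 3 ratios in each group, was examined. A set was flagged where a library's gap to its nearest neighbour exceeded 0.71 of the whole range (Dixon's critical value for 5 samples). By this rule 5 sets were flagged. Chance gives about 1 in 20 for independent, normally distributed sets, which these were not shown to be. The ratios also reuse member counts, so the 5 are not read against chance. Cdkn1a had 158 CPM in SCC 2, where the other SCC libraries had 43.7 to 66.6 CPM. Ccng1 had 365 CPM in the same library, where the other SCC libraries had 84.2 to 161 CPM. Sesn2 had 74.5 CPM in SCC 1, where the other SCC libraries had 18.8 to 24.6 CPM. The log2 ratio of Cdkn1a to Trp53 was -2.57 in normal 2, where the other normal libraries had 0.31 to 0.83. Gdf15 had 0.386 CPM in normal 4, which is 1 count, where the other normal libraries had 0. With 1 count in that set the gap is the whole range by construction.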

How the results depend on the processing

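No paired analysis was possible because the labels give no replicate numbers that the groups share. With no filter on low counts the log2 fold changes of Trp53, Mdm2 and Bbc3 were -0.21, -0.18 and -0.0040. That setting moved the median of the 13203 shared genes by -0.39 and called 7542 genes, 72.5% of them higher, against 58.9% of 2791. It called 3 members, Sesn2, Phlda3 and Gdf15. limma-voom called 6023 genes and gave Ccng1 -0.18. Cdkn1a passed with DESeq2 size factors (1.37), in the DESeq2 Wald test (1.37) and in limma-voom (1.39). With SCC 2 and SCC 5 alone 1330 genes were called, 44.5% of them higher, Bax was at 0.43 and Sesn2 lost its call (1.80). Background subtraction called 1708 genes and gave Bax 0.076 and the log2 ratio of Mdm2 to Trp53 0.072. None of the members that changed sign was called in any of these settings. The cause was not tested.

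The counts below stand beside the calls over all tested genes in the same fit, which also moved. These were 7542 of 22919 with no filter, 6023 of 13203 in limma-voom and 3423 of 13203 in the DESeq2 Wald test. With SCC 2 and SCC 5 alone they were 1330 of 14305, and after subtraction 1708 of 11517. The called members numbered 1 with SCC 2 and SCC 5 alone. The other p53 targets numbered 1 there and 2 after background subtraction, the regulators 7 with no filter and 12 in limma-voom, and the BCL2 family 1 in each of the SCC 2 and SCC 5 and subtraction fits. The stress response genes numbered 8 in limma-voom and 2 with SCC 2 and SCC 5 alone, the genes repressed through p21 1 with SCC 2 and SCC 5 alone and 5 after subtraction, and the p21 partners 2 in the DESeq2 Wald test, limma-voom, SCC 2 and SCC 5 and subtraction fits.

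Leaving out each library in turn gave log2 fold changes of -0.21 to 0.18 for Trp53, 0.88 to 1.58 for Cdkn1a, -0.11 to 0.25 for Mdm2, -0.037 to 0.54 for Ccng1, -0.39 to 0.19 for Bax, 0.13 to 0.46 for Bbc3, 1.74 to 2.56 for Sesn2, 2.38 to 2.84 for Phlda3 and 0.62 to 1.82 for Eda2r. Called genes numbered 2313 to 3534 of all genes, 1 to 3 of the members, 2 to 6 of the other targets, 4 to 6 of the regulators, 1 to 4 of the BCL2 family, 3 to 5 of the stress response genes, 5 to 8 of the genes repressed through p21 and 1 to 2 of the p21 partners. The member count of 1 came without SCC 1. The other targets numbered 2 without SCC 1, SCC 3 or SCC 4 and 3 without normal 2. The BCL2 count was 1 or 2 without SCC 1 or any single normal library, the count of genes repressed through p21 was 5 without normal 2 or normal 3, and that of the p21 partners 2 without SCC 3. The log2 ratios ran from -0.28 to 0.088 for Mdm2 to Trp53, 0.62 to 1.47 for Cdkn1a to Trp53 and -0.15 to 0.96 for Bax to Bcl2.

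Depth limits Gdf15, with 49 counts in SCC and 1 in normal lung, and so does the estimated background, at 61.1% of its SCC counts. The estimated background also limits Eda2r, at 40.4% of its SCC counts, and exceeds its level in SCC 1 and SCC 4.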
